A study of Homo sapiens with 6 samples.

Results

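Amino acid transporter genes were taken as every gene of the table whose symbol starts with 1 of 7 prefixes, SLC1A, SLC3A, SLC6A, SLC7A, SLC36A, SLC38A or SLC43A, which gave 53 of 16670 genes. The rule used names alone, though the set was proposed with earlier results of these data known. A total of 52 of them encode solute carriers, and SLC7A6OS carries the prefix only because it lies on the strand opposite SLC7A6. Not every carrier moves amino acids, since the SLC6 family also holds carriers of monoamines, creatine and other osmolytes. The libraries came from A549 cells, an established human non-small cell lung cancer line, and formed 2 groups of 3, called biological replicates in the labels. The salinomycin group had 1 week of alisertib, an Aurora A kinase inhibitor used to make the cells senescent, and then 48 h of 2.5 µM salinomycin, a polyether ionophore that carries alkali metal ions across membranes. The untreated group had the same week of alisertib and no salinomycin, and the labels do not say whether it received vehicle. Cells without alisertib were not analysed here, so senescence itself was not compared, and all values describe a single cell line. Whether the replicates were separate cultures is not stated, so p-values measure the spread between these libraries. The question is how salinomycin alters the carrier transcripts of senescent A549 cells.

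Cells take up amino acids through carriers that differ in substrate and driving force. Sodium-coupled carriers of the SLC1, SLC6 and SLC38 families concentrate amino acids inside the cell. Exchangers of the SLC7 family pair with a heavy chain, SLC3A2 or SLC3A1, and trade internal amino acids such as glutamine for external leucine, cystine or arginine. Members of the SLC36 and SLC38 families on lysosomes release amino acids to the cytosol and report them to the growth kinase complex mTORC1. When amino acids are scarce, the transcription factor ATF4 induces many of these carriers together with enzymes of amino acid synthesis. In tumour cells SLC7A5, SLC7A11 and SLC1A5 are among the best studied.

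Deposited values were rescaled and rounded by the authors. They are given here as normalised units, the deposited value less the 1 that had been added, divided by a trimmed-mean factor of the library. As rescaled by the authors, a library summed to between 16253579 and 16366234, and the read totals recovered from the rounding steps were 13539959 to 19641149. A gene was tested where its deposited value was 11 or more in at least 3 libraries, and folds are of units plus 1, which understates the change of low genes. Of 5 epithelial markers, all tested, KRT8, KRT18, EPCAM and CDH1 fell and KRT19 rose, with KRT18 at 20262 ± 724 units with salinomycin and 84124 ± 4538 units in untreated cells (SD, n = 3 each). The summed units of these markers were 33824 to 37954 with salinomycin and 152080 to 167705 untreated. Markers of other cells summed to far less: 404 to 439 units with salinomycin and 575 to 806 untreated for fibroblasts (5 genes, of which COL1A2 and DCN were near 0), 43.1 to 58.2 and 193 to 223 for leukocytes (2 of 5 listed genes in the table), and 2.82 to 10.2 and 9.60 to 15.1 for endothelium (3 genes). The 5 alveolar type II markers in the table summed to 102 to 129 units with salinomycin and 47.0 to 61.7 untreated, with SFTPB and SFTPC at no more than 1.08 units in any library and NKX2-1 at 0 in the untreated libraries. NKX2-1 had 14.1 to 16.9 units with salinomycin, LAMP3 rose from a mean of 4.28 to 66.9 units, and NAPSA did not pass. Of the leukocyte markers, CD14 fell from a mean of 201 to 30.2 units and LYZ rose from 6.40 to 19.6. The part of these marker differences in the carrier results was not tested.

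Of the 53 genes 34 were tested, and 12 rose and 19 fell at a Benjamini-Hochberg adjusted p under 0.05 in limma, adjusted over all 13088 tested genes. That is 91.2% of tested members, beside 81.9% of all tested genes. Falls made up 55.9% of tested members and rises 35.3%, beside 40.2% and 41.6% of all tested genes. A change of at least 2-fold was found in 5 members that rose and 11 that fell, 47.1% of those tested, beside 35.3% of all tested genes (16.8% higher and 18.5% lower). Past 8-fold, 2 members rose (SLC1A4 and SLC6A17) and 5 fell (SLC7A2, SLC7A7, SLC6A14, SLC6A16 and SLC38A11), beside 2.07% of all tested genes that rose and 2.8% that fell so far. SLC38A11, SLC6A14 and SLC6A16 passed the filter only through the untreated libraries. Their folds were 4.77, 6.57 and 12.1 with a pseudocount of 8. In 31 of 34 members the salinomycin libraries all lay to the same side of the untreated ones, beside 83.0% of all tested genes. The median log2 change was -0.50 for tested members and 0.02 for all tested genes, and the median size of the change regardless of sign was 0.97 and 0.70. The members' median depended on the filter. It was -0.25 with a stricter filter of 51 or more, which left 26 members, 11 higher and 13 lower, and -0.10 with no filter. As these are bulk libraries, a change in transcripts per cell cannot be told apart from a change in the mix of cells.

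**Figure D1:**
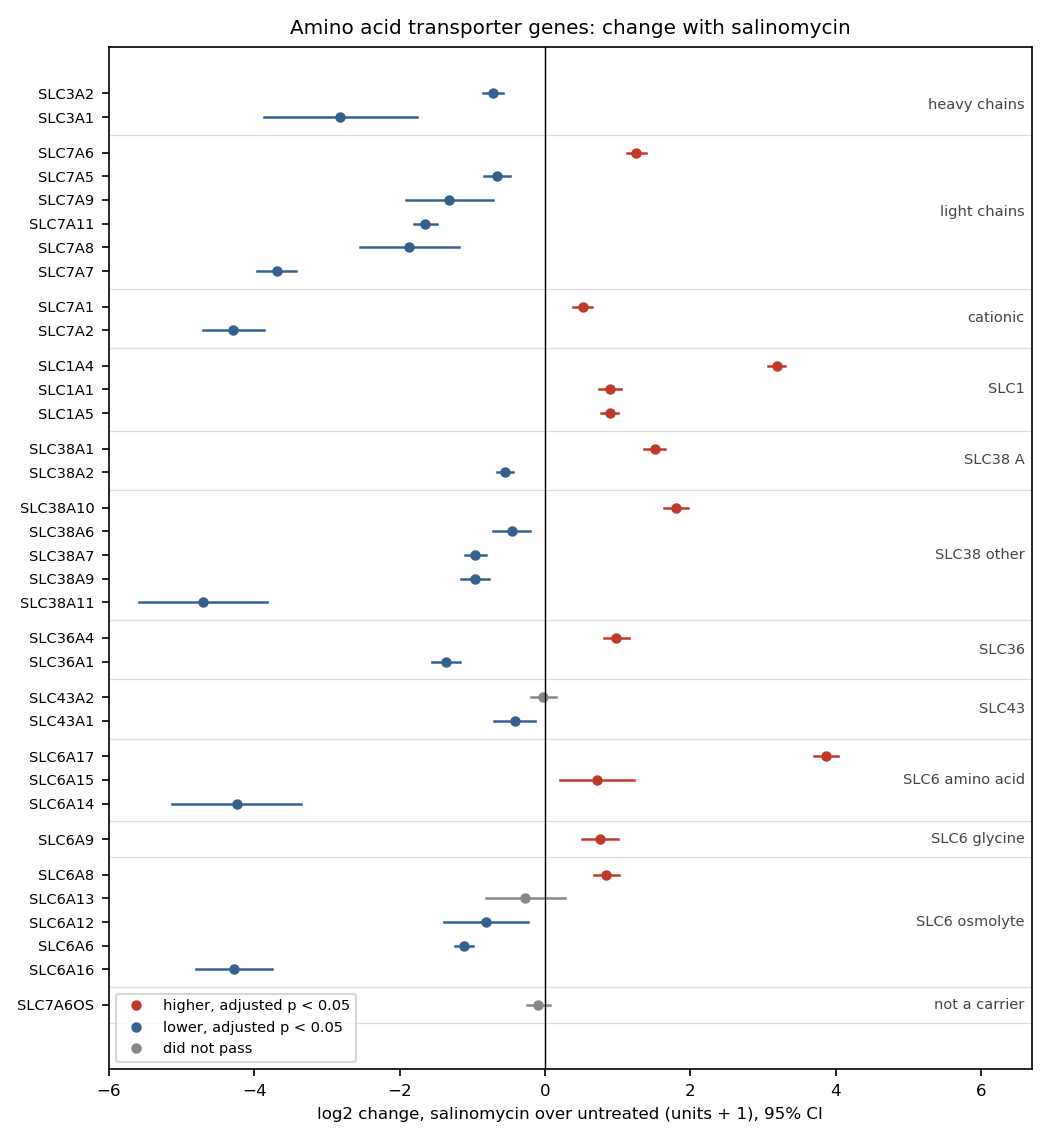
Log2 change of each of the 34 tested genes, salinomycin over untreated, with its 95% confidence interval from limma, in rows by role. SLC6A16, which has no established substrate, is drawn with the SLC6 osmolyte carriers. Changes ran from -4.70 (SLC38A11) to 3.87 (SLC6A17), and 3 genes, in grey, did not pass.

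Abundant carriers moved in both directions. Of 13 members with a mean of 1000 or more units in either group, 7 rose and 6 fell. Over all tested genes, whatever their level, 41.6% rose and 40.2% fell. Of the members that fell, 6 had an untreated mean under 100 units, against 2 of those that rose. Summed over the 52 carriers, units made up 0.385% ± 0.002 of all units with salinomycin and 0.315% ± 0.013 untreated (SD, n = 3 each). The trimmed-mean factors cancel in this share, so it is on the scale of library size alone. With that scaling the median log2 change over all tested genes was 0.21, beside 0.02 with the factors. Levels of different genes are compared per kilobase (kb) of annotated exon, and on that scale the carriers summed to 10412 ± 246 units per kb with salinomycin and 9912 ± 482 untreated. No test was made of this sum, and the groups' means differed by about the SD of the untreated libraries. The 5 highest carriers held 74.4% of that sum with salinomycin and 77.1% untreated. SLC1A5 ranked first with salinomycin at 2983 units per kb, or 28.6% ± 0.63 of the sum, and SLC7A5 ranked first untreated at 3270 units per kb, or 32.9% ± 2.46. SLC7A5 was at 19.8% ± 0.64 with salinomycin, and SLC1A5 at 16.3% ± 0.91 untreated. On this scale the order of these most abundant carriers was turned round, with no overlap between the groups for either gene. Not divided by exon length, SLC1A5 had 9940 ± 450 units with salinomycin and SLC7A5 had 9775 ± 543. The lead of SLC1A5 with salinomycin thus rests mostly on exon length, and the order was not computed with another gene length.

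**Figure D2:**
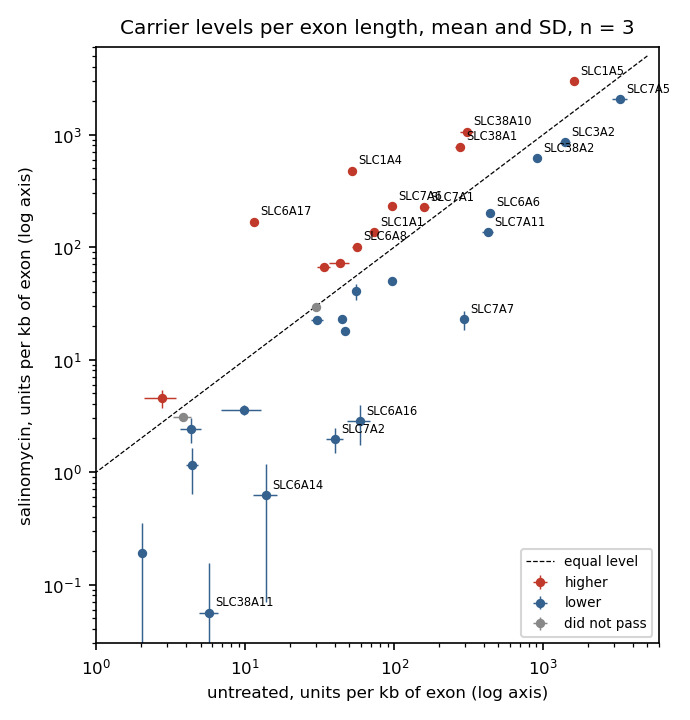
Mean level of each tested carrier in units per kb of exon, with salinomycin (vertical, log axis) and untreated (horizontal, log axis). Bars are SD over 3 libraries and are cut off where they reach 0. SLC1A5 and SLC7A5 stand at the upper right on opposite sides of the line of equal level, and SLC7A7, SLC7A2, SLC6A16 and SLC6A14 lie far below it.

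Heavy and light chains of the heterodimeric exchangers fell in 7 of 8 tested cases, beside 40.2% of all tested genes, and 3 of the 7, SLC3A1, SLC7A8 and SLC7A9, were low genes that passed the filter only through the untreated libraries. SLC3A2, the CD98 heavy chain that brings its light chains to the cell surface (chromosome 11, 62856102 to 62888875, GRCh38), had 4250, 4394 and 4657 units in the salinomycin libraries, against 7870, 6779 and 7191 in the untreated libraries. Every salinomycin library was lower than every untreated one, a fall by 0.71 on the log2 scale (SE 0.061, adjusted p = 3.66e-07 in limma). SLC3A1, the heavy chain known from the kidney, was near the limit of detection, with 4 reads with salinomycin and 35 untreated. It fell in the fit (log2 change -2.82), by 7.04-fold or 2.30-fold with a pseudocount of 8, and 29.4% of its exon bases overlap PREPL on the other strand.

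SLC7A5, the light chain LAT1 that imports leucine and other large neutral amino acids (chromosome 16, 87830023 to 87869488), had 9180, 9900 and 10245 units with salinomycin, against 15783, 13510 and 17259 untreated. The untreated libraries varied more than the salinomycin libraries, and the groups did not overlap (log2 change -0.66, SE 0.081, adjusted p = 9.27e-06 in limma). SLC7A5 has close pseudogene copies among which counting could have split reads. SLC7A11, the cystine-glutamate exchanger xCT that supplies cysteine for glutathione (chromosome 4, 138164097 to 138242349), had 1399, 1306 and 1215 units with salinomycin, against 3687, 4260 and 4318 untreated, a 3.13-fold fall with no overlap. An antisense gene shares 8.97% of its exon bases.

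SLC7A7 and SLC7A6, a pair of light chains that export arginine and lysine in exchange for neutral amino acids and sodium, moved in opposite directions. SLC7A7 (chromosome 14, 22773222 to 22829820) had 125, 134 and 91.1 units with salinomycin, against 1559, 1549 and 1391 untreated. SLC7A6 (chromosome 16, 68264516 to 68301823) had 1855, 1704 and 1678 units with salinomycin, against 709, 752 and 725 untreated. SLC7A7 fell 12.9-fold (log2 change -3.69, SE 0.124, adjusted p = 9.55e-11 in limma) and lay at percentile 1.45 of all tested changes, and SLC7A6 rose 2.39-fold. SLC7A6 shares 44.4% of its exon bases with SLC7A6OS on the other strand. Without stated strandedness reads there cannot be told apart, and SLC7A6OS itself did not pass (416 ± 17.1 units with salinomycin and 443 ± 20.7 untreated, SD, n = 3 each). Of the pair's summed units per kb, SLC7A6 held 91.0% ± 1.497 with salinomycin and 24.8% ± 1.26 untreated. With the longest protein-coding transcript as length these shares were 85.4% and 15.9%, and those of SLC7A7 were 14.6% and 84.1%.

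Among all light chains that pair with SLC3A2, SLC7A5 stayed the most abundant, at 84.1% ± 1.60 of their summed units per kb with salinomycin and 79.9% ± 2.46 untreated. SLC7A11 made up 5.54% ± 0.60 with salinomycin and 10.4% ± 1.37 untreated. SLC7A7 made up 0.932% ± 0.20 with salinomycin and 7.22% ± 1.05 untreated, or 1.83% and 13.5% with the longest protein-coding transcript as length. The ratio of the summed light chains to SLC3A2 was 2.86 ± 0.054 with salinomycin and 2.91 ± 0.264 untreated, a difference smaller than the spread of the untreated libraries. SLC7A8, the light chain LAT2, and SLC7A9, the partner of SLC3A1, were both under 30 units on average and fell, by 3.64-fold and 2.49-fold (2.34-fold and 1.89-fold with a pseudocount of 8).

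**Figure D3:**
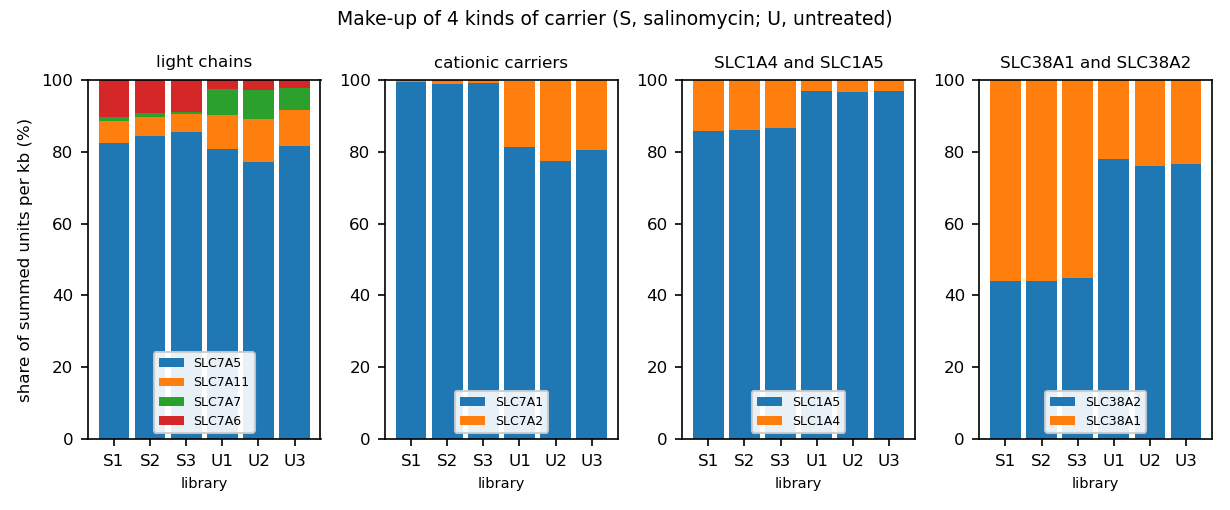
Share of each carrier in the summed units per kb of 4 kinds of carrier, by library (percent, stacked bars starting at 0; S, salinomycin; U, untreated). Carriers under 0.5% in every library are left out. SLC38A1 makes up about 56% of its pair with salinomycin and about 23% untreated, and SLC7A2 is a thin edge at 0.859% with salinomycin and about 20.1% of the cationic carriers untreated.

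The cationic carriers SLC7A1 and SLC7A2, which import arginine and lysine without a heavy chain, also moved apart. SLC7A1, the widely expressed CAT1 (chromosome 13, 29509410 to 29595688), had 1782, 1773 and 1707 units with salinomycin, against 1172, 1182 and 1325 untreated. SLC7A2, which encodes CAT2 (chromosome 8, 17497088 to 17570573), had 11.1, 18.8 and 16.9 units with salinomycin, against 272, 352 and 329 untreated. Neither pair of groups overlapped. SLC7A1 rose 1.43-fold (log2 change 0.52, SE 0.059, adjusted p = 5.21e-06 in limma) and SLC7A2 fell 19.5-fold, or 13.9-fold with a pseudocount of 8. SLC7A2 made up 0.859% ± 0.22 of the summed cationic carriers per kb with salinomycin and 20.1% ± 2.12 untreated. Their sum was 230 ± 5.18 units per kb with salinomycin and 200 ± 13.4 untreated, which was not tested.

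All 3 tested SLC1 genes rose, beside 41.6% of all tested genes. SLC1A4, the ASCT1 carrier of alanine, serine and cysteine (chromosome 2, 64988477 to 65023865), had 3275, 3386 and 3292 units with salinomycin, against 376, 361 and 353 untreated. SLC1A5, the ASCT2 exchanger that takes up glutamine (chromosome 19, 46774883 to 46788594), had 9465, 9992 and 10362 units with salinomycin, against 5666, 5204 and 5234 untreated. The groups lay far apart for both, with a 9.11-fold rise for SLC1A4 (log2 change 3.19, SE 0.053, adjusted p = 5.95e-13 in limma) and a 1.85-fold rise for SLC1A5. SLC1A4 was thereby at percentile 98.2 of all tested changes. Per kb, SLC1A5 was 6.24 ± 0.280 times as abundant as SLC1A4 with salinomycin and 30.8 ± 0.665 times untreated. Both ratios depend on the exon lengths used, 3332 bases for SLC1A5 and 6939 for SLC1A4, and the SD covers the spread of libraries only. An unnamed antisense gene shares 23.4% of the exon bases of SLC1A5. SLC1A1, a carrier of glutamate and cysteine, rose 1.85-fold to 539 ± 11.9 units with salinomycin, against 290 ± 7.57 untreated (SD, n = 3 each).

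The SLC38 system A carriers, which import small neutral amino acids and glutamine with sodium, moved in opposite directions. SLC38A1 (chromosome 12, 46183063 to 46270017) had 8351, 7834 and 7295 units with salinomycin, against 2518, 2892 and 2839 untreated. SLC38A2, the form best known for induction by amino acid starvation and hypertonic stress (chromosome 12, 46358189 to 46372867), had 4336, 4059 and 3915 units with salinomycin, against 5872, 6012 and 6138 untreated. SLC38A1 rose 2.85-fold and SLC38A2 fell by 0.55 on the log2 scale (adjusted p = 8.26e-10 and 7.67e-07 in limma), each with no overlap. SLC38A1 made up 55.7% ± 0.49 of the pair's units per kb with salinomycin and 23.2% ± 1.03 untreated.

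Of the other SLC38 genes, SLC38A10 rose and 4 fell. SLC38A10, whose product has been described as a carrier of glutamine and alanine in mice (chromosome 17, 81245000 to 81295547), had 7554, 8286 and 8743 units with salinomycin, against 2416, 2092 and 2559 untreated, a 3.48-fold rise. Per kb it was at rank 3 of the carriers with salinomycin and at rank 7 untreated, while SLC3A2, which fell, went from rank 3 untreated to rank 4. Among the 4 that fell were the lysosomal carriers SLC38A9 and SLC38A7. SLC38A9, an arginine sensor of the mTORC1 pathway, had 203 ± 16.8 units with salinomycin, against 396 ± 19.6 untreated. SLC38A7, a glutamine exporter of lysosomes, had 348 ± 8.30 units with salinomycin, against 676 ± 12.0 untreated (SD, n = 3 each). SLC38A6 fell least, by 0.46 on the log2 scale, and did not pass when values were scaled by library size alone (adjusted p = 0.0538). SLC38A11, a gene of unsettled function, had 1 read over the salinomycin libraries and 83 over the untreated ones. Allowing for depth and the trimmed-mean factors, the ratio of these reads, untreated over salinomycin, was 111, with a 95% counting interval of 19.3 to 4422.

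The proton-coupled SLC36 carriers moved in opposite directions, and the tested SLC43 carriers changed little or did not pass. SLC36A1, which releases small amino acids from lysosomes, had 129, 124 and 122 units with salinomycin, against 310, 327 and 334 untreated, a 2.58-fold fall with no overlap. SLC36A4, a high-affinity carrier of proline and tryptophan, rose 1.98-fold to 642 ± 16.0 units with salinomycin, against 325 ± 30.7 untreated (SD, n = 3 each). SLC43A1, the leucine carrier LAT3, fell by 0.42 on the log2 scale, and did not pass with scaling by library size alone (adjusted p = 0.124). SLC43A2, the related LAT4, had 318, 307 and 307 units with salinomycin, against 305, 306 and 335 untreated. Its groups overlapped, and the 95% confidence interval of the log2 change ran from -0.19 to 0.15.

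Among tested members the SLC6 family held the largest rise, that of SLC6A17, and 2 of the 5 falls past 8-fold. SLC6A17, a carrier of neutral amino acids known from synaptic vesicles of neurons (chromosome 1, 110150486 to 110202202), had 1131, 1114 and 1106 units with salinomycin, against 72.4, 76.6 and 77.9 untreated. SLC6A14, a broad importer of neutral and cationic amino acids (X chromosome, 116436622 to 116461458), had 1.85, 0.938 and 5.63 units with salinomycin, against 53.0, 75.5 and 58.7 untreated. SLC6A16, a member with no established substrate (chromosome 19, 49289638 to 49325225), had 14.8, 7.50 and 8.45 units with salinomycin, against 169, 239 and 226 untreated. None of these groups overlapped. SLC6A17 rose 14.6-fold (log2 change 3.87, SE 0.076, adjusted p = 1.89e-12 in limma), and SLC6A14 and SLC6A16 fell 18.9-fold and 19.4-fold. With a pseudocount of 8 the folds were 13.5, 6.57 and 12.1, so the size of the fall of SLC6A14, which rests on 10 reads with salinomycin, is the least certain.

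SLC6A6, the taurine carrier that helps cells keep their volume (chromosome 3, 14402576 to 14489349), had 1703, 1682 and 1631 units with salinomycin, against 3358, 3757 and 3789 untreated, a 2.17-fold fall. SLC6A8, the creatine carrier, rose 1.80-fold to 555 ± 20.2 units with salinomycin, against 309 ± 21.98 untreated, and has a close pseudogene copy. SLC6A9, the glycine carrier GlyT1, rose 1.69-fold to 373 ± 25.5 units with salinomycin, against 221 ± 34.0 untreated (SD, n = 3 each). These 3 carriers had no overlap between groups. SLC6A15, a carrier of branched-chain amino acids and proline, rose 1.64-fold, and SLC6A12, a carrier of betaine and GABA, fell 1.75-fold. Both were under 60 units, and each lost its call when either of 2 libraries was left out: SLC6A15 without salinomycin replicate 1 (adjusted p = 0.0605) or untreated replicate 2 (adjusted p = 0.05004), and SLC6A12 without salinomycin replicate 3 (adjusted p = 0.0574) or untreated replicate 2 (adjusted p = 0.0512). SLC6A13, a related GABA carrier, did not pass, at 13.1 ± 0.952 units with salinomycin and 16.1 ± 2.11 untreated.

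**Figure D4:**
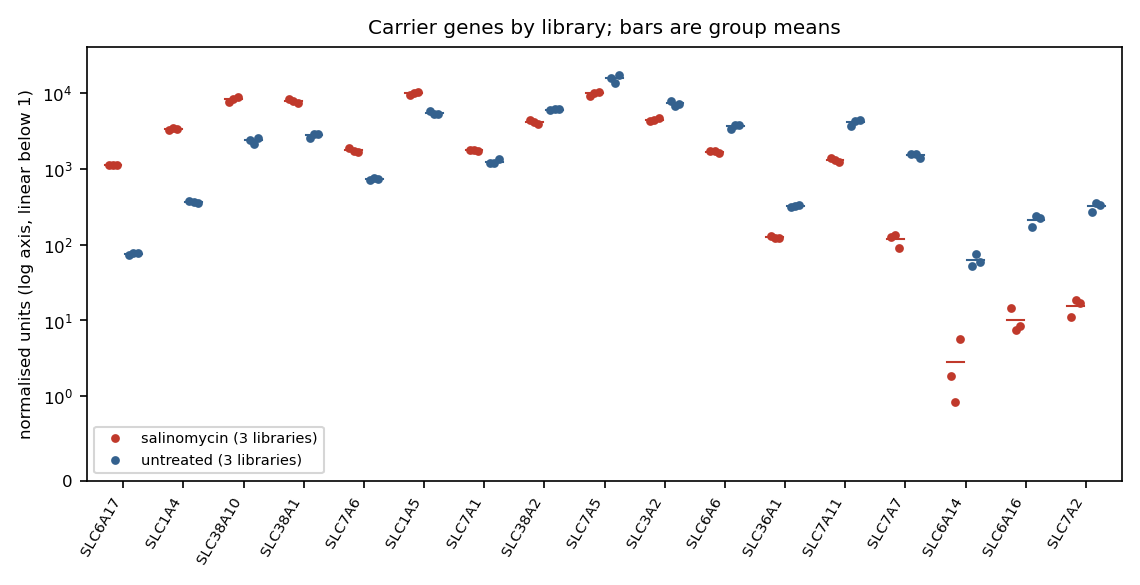
Normalised units of the 17 carriers with a mean of 1000 or more units in either group, or with a change of at least 2-fold at 50 or more units, in each salinomycin library (left, red) and each untreated library (right, blue), in order of their log2 change. Bars are group means, the axis is logarithmic and linear below 1, and the libraries of a gene do not overlap between groups.

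The remaining 19 genes did not reach the level for a test, with no value above 8.65 units in any library. They had at most 17 reads over the salinomycin libraries and 22 over the untreated libraries. SLC1A2, a glutamate carrier of glial cells, had 4 reads with salinomycin and 22 untreated, and SLC38A3, a glutamine carrier of liver and kidney, had 1 and 13. Their read ratios, untreated over salinomycin, were 7.33 (95% counting interval 2.49 to 29.3) and 17.3 (2.60 to 736). Such intervals cover counting error only, and replicate libraries differed beyond it. In the untreated libraries SLC38A3 had 8.65, 3.19 and 2.13 units. SLC38A5, a related carrier, had 17 reads with salinomycin and 5 untreated, a ratio of 0.392 (0.113 to 1.11). The monoamine carriers SLC6A2, SLC6A3 and SLC6A4, those of noradrenaline, dopamine and serotonin, had 0, 5 and 11 reads with salinomycin and 1, 6 and 3 untreated. When the filter was left off, 15 of the 53 genes rose and 21 fell, beside 5735 and 5645 of all 16670 genes. Some of the 19 genes were thus called at these low levels.

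Promoters are shown for the members that passed the test and held, in the 250 bases before a transcript start, a motif linked to amino acid or oxidative stress. RefSeq (GRCh38.p14) gave 61 promoter windows for 40 of the 53 genes. The genes without a window, SLC7A11 and SLC7A2 among them, were not searched. The letters searched on both strands were TGATGNAAN, the element bound by C/EBP and ATF factors, and TGACNNNGC, the antioxidant response element. The first was found in 2 of 61 promoters (3.28%), beside 3.13% of all 35116 promoters, and the second in 6 of 61 (9.84%), beside 10.9%. Over the 15570 promoters of tested genes the shares were 1.77% and 11.7%. By direction, TGACNNNGC stood in 3 of 16 promoters of genes that rose and in 2 of 26 of genes that fell, and TGATGNAAN in 1 of 16 and in 0 of 26. A match is a string of letters and was not tested as a site. In the sequences, 5′ to 3′ on the strand of the gene, capitals mark the match, which is TGATGNAAN for SLC1A5 and TGACNNNGC for the others. The stretches lie at chr19:46784876-46785064 (minus strand) for SLC1A5, chr13:29595689-29595938 (minus) for SLC7A1, chr16:68264276-68264525 (plus) for SLC7A6, chr11:62881449-62881697 (plus) for SLC3A2 and chr14:22819792-22820041 (minus) for SLC7A7. The last base shown lies 62 bases before the transcript start for SLC1A5 and 2 bases before it for SLC3A2. For SLC1A5, SLC3A2 and SLC7A7 the stretch lies inside the annotated gene, before a transcript start within it. SLC1A5, SLC7A1 and SLC7A6 rose and SLC3A2 and SLC7A7 fell. SLC7A6 and SLC7A7, which moved in opposite directions, both hold TGACNNNGC. A further SLC1A5 promoter, not shown, holds TGACNNNGC on the opposite strand.
SLC1A5: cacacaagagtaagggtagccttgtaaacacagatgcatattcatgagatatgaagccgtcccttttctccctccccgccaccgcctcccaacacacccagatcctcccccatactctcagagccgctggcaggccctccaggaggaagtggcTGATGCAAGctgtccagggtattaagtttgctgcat
SLC7A1: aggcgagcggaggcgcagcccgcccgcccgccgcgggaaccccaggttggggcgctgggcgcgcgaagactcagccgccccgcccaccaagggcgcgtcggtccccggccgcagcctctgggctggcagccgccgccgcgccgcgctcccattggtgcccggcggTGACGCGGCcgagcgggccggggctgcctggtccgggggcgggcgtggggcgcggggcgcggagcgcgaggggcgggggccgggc
SLC7A6: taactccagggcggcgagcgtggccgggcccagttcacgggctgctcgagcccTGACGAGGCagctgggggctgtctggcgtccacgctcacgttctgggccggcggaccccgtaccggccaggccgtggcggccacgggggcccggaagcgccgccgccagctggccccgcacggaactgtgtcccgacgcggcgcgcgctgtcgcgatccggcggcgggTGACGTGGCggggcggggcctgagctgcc
SLC3A2: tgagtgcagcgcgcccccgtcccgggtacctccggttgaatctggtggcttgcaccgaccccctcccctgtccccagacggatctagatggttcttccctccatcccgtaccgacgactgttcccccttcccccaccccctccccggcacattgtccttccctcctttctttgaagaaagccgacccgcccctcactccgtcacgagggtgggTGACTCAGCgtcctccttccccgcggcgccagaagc
SLC7A7: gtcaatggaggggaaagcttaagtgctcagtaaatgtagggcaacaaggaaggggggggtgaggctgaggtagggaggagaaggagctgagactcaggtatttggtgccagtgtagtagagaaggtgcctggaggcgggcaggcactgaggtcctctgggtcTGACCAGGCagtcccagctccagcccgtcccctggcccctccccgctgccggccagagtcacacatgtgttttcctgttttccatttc

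Most genes listed here as the amino acid response, transcripts that ATF4 and its partners can induce, rose. The list name is a label only, and the signal behind these changes was not tested. Of 33 genes, all tested, 28 were called higher and 3 lower, and their median log2 change was 1.27, beside 41.6% higher, 40.2% lower and a median of 0.02 for all tested genes. ATF4, the transcription factor of the response, had 10348, 11076 and 11338 units with salinomycin, against 6015, 5704 and 5524 untreated, a 1.90-fold rise. DDIT3, which encodes CHOP, TRIB3, which encodes a pseudokinase that restrains ATF4, and CHAC1, which encodes an enzyme that breaks down glutathione, rose most, by 11.9, 9.95 and 8.88-fold. SESN2, a leucine sensor gene, rose 2.66-fold. ASNS, the asparagine synthetase gene often used to read out the response, was low in both groups and passed the filter only through the salinomycin libraries. It rose 6.07-fold (4.16-fold with a pseudocount of 8), to 74.1 ± 13.3 units with salinomycin, against 12.1 ± 6.22 untreated (SD, n = 3 each). Of 11 aminoacyl-tRNA synthetase genes 10 rose, and TARS1 fell by 0.17 on the log2 scale. PSPH, of serine synthesis, and CEBPB, a transcription factor gene, also fell. In the same libraries SLC3A2, SLC7A5, SLC7A11 and SLC38A2 fell, and SLC1A4, SLC1A5, SLC7A1 and SLC38A1 rose. The difference between the list and the carriers was not tested.

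Other carriers of amino acids and peptides, in mitochondria, lysosomes and vesicles, rose in 8 and fell in 4 of 14 tested cases, with a median of 0.46, beside 41.6% higher, 40.2% lower and a median of 0.02 for all tested genes. With no filter 8 rose and 6 fell of 21, with a median of -0.08. SLC25A22, a mitochondrial glutamate carrier, rose 4.74-fold to 1106 ± 70.7 units with salinomycin, against 234 ± 34.2 untreated. SLC15A2, a peptide carrier, and SLC17A5, the lysosomal sialic acid carrier, rose 4.22-fold and 2.93-fold. SLC25A29, a mitochondrial carrier of basic amino acids, and SLC25A13, the aspartate-glutamate carrier citrin, fell 3.43-fold and 2.97-fold. MFSD12, needed for cystine import into lysosomes, fell 1.41-fold. CTNS, the lysosomal cystine exporter, had 263 ± 22.02 units with salinomycin and 191 ± 6.19 untreated, and SLC66A1, an exporter of cationic amino acids from lysosomes, had 321 ± 39.0 and 231 ± 20.5 (SD, n = 3 each). Both rose, and both were named after their values were seen. The lysosomal carriers SLC36A1, SLC38A7 and SLC38A9 fell.

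**Figure D5:**
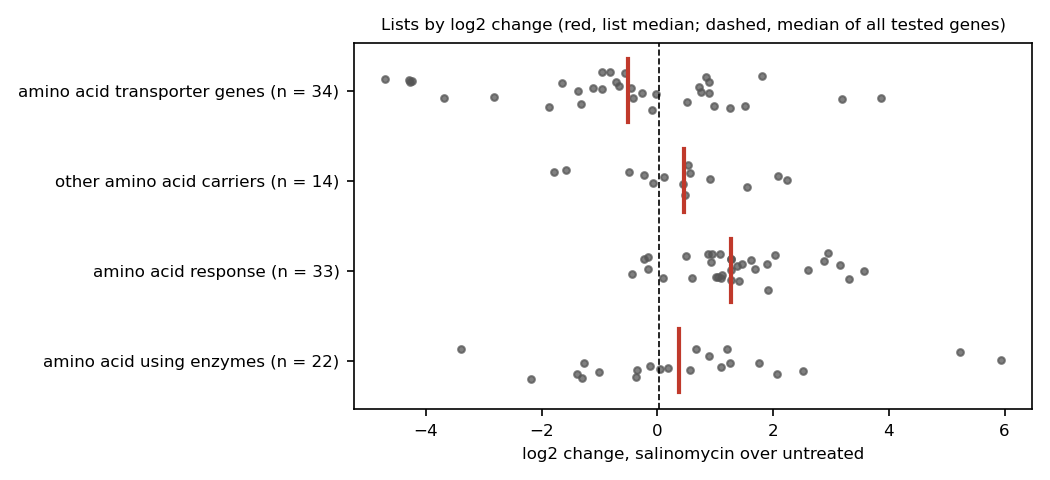
Log2 change of each tested gene, salinomycin over untreated, in 4 gene lists (horizontal axis, points spread vertically to separate them). Red bars are list medians of -0.50, 0.46, 1.27 and 0.37 from top to bottom, and the dashed line is the median of all tested genes, 0.02.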

How the data were processed

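Members, gene lists and motifs were chosen with earlier results of these data known. The authors' deposited signal values were rescaled, rounded whole numbers with 1 added, 1 column per library; GRCh38 is the build named in the submitters' processing notes, while aligner, counter, annotation and strand setting are not given in the sources used here. From these values 1 was subtracted, and the result was divided by trimmed-mean (TMM) factors with library size (30% trimming of log ratios, 5% of levels). Log2 of units plus 1 was fitted with limma 3.58.1 in R 4.3.3 (mean-variance trend, all 6 libraries, group as the only term), and p-values were adjusted by Benjamini-Hochberg over 13088 genes, with 3582 below the filter. Reads were recovered by likelihood from rounding steps. They are estimates, and intervals cover counting error only. Replicate libraries differed beyond counting noise (chi-square over genes of 2.81 to 6.83 per gene), so each was counted separately; this does not show separate cultures. Positions and exon lengths are from GENCODE 29. All members could be named, and values by library are given for 17 by rule and for SLC43A2, chosen after its values were seen. Of the lists, the 3 largest rises and falls and 7 genes listed by name could be named. Some genes are not reported here. The alternatives were other scalings, pseudocounts, filters, limma-voom on recovered reads, a replicate block and leaving out each library, and, chosen after seeing the data, another gene length.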

Additional observations from a re-analysis of the deposited data

How the results depend on the processing

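Of the 34 tested members 29 kept their side of the threshold in each alternative run that tested them, and no called member reversed. SLC43A2, called in none of them, had a log2 change of 0.17 with scaling by library size alone and of 0.02 without untreated replicate 3. The other 5 were SLC6A12, SLC6A15, SLC38A6 and SLC43A1, whose values stand in the report, and SLC7A6OS, which passed with upper-quartile scaling (log2 change -0.18) and was at 0.10, not called, with scaling by library size alone. With library size as the sole scaling, the median over all tested genes was 0.21, beside 0.02 with trimmed-mean factors, and 12 members rose, 17 fell and 1 gene of the amino acid response fell in place of 3. The trimmed-mean factors were 1.06 to 1.08 for the salinomycin libraries and 0.926 to 0.943 for the untreated ones. Why they differ by group was not tested. Leaving out single libraries gave 11 to 12 members higher and 18 to 19 lower. Of 30 shares per kb, 18 moved by more than the replicate SD with the longest protein-coding transcript as length. The replicate numbers did not pair the libraries (correlation of deviations from group means -0.17, -0.013 and -0.033 for equal numbers), and with the number as a block 12 members rose and 19 fell, beside 5325 and 5130 of all genes. Depth limits the 19 members below the filter and the folds of SLC3A1, SLC6A14 and SLC38A11.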

Other observations

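Enzymes that use or make amino acids moved in both directions, with 12 of 22 tested genes higher and 8 lower and a median log2 change of 0.37, beside 41.6% higher, 40.2% lower and a median of 0.02 for all tested genes. GLUL, the glutamine synthetase gene, fell 4.53-fold to 244 ± 18.4 units with salinomycin, against 1109 ± 65.5 untreated (SD, n = 3 each). GCLC and GCLM, the catalytic and modifier subunits of glutamate-cysteine ligase, fell 2.47-fold and 2.61-fold. GLS2, a glutaminase gene of the liver, had 1 read with salinomycin and 32 untreated, an untreated level 42.7 times the salinomycin level (95% counting interval 7.13 to 1737). It passed the filter only through the untreated libraries, and its fall was 10.5-fold in the fit but 2.42-fold when 8 was added to each value in place of 1.

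ARG2, GPT and BCAT1 rose most in this list. ARG2, the mitochondrial arginase gene, had 662, 701 and 705 units with salinomycin, against 14.1, 11.7 and 6.40 untreated, a 61.5-fold rise (37.8-fold with a pseudocount of 8). GPT, an alanine aminotransferase gene, had 624 reads with salinomycin and 10 untreated and rose 37.7-fold, or 15.6-fold with a pseudocount of 8. Both ARG2 and GPT passed the filter only through the salinomycin libraries. BCAT1, the cytosolic branched-chain aminotransferase gene, rose 5.71-fold to 1810 ± 172 units with salinomycin, against 316 ± 36.4 untreated (SD, n = 3 each). For ARG2, GPT, BCAT1, GLUL, GCLC and GCLM the libraries of the groups did not overlap, as for 83.0% of all tested genes.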
